A study of Homo sapiens with 6 samples.

Results

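A total of 73 of the 33496 genes listed in 6 RNA-seq libraries of human retinal pigment epithelium (RPE) cells were present in 2 libraries and close to or at 0 in the other 4. They were chosen by their measured level: a gene had to reach at least 0.2 FPKM in both Era+VK replicate 2 and Era+VK replicate 3, and the lower of these values had to be over 5 times the highest value of the other 4 libraries. FPKM count the fragments assigned to a gene per kilobase of its transcript and relative to the fragments mapped in that library. The selection passed 0.218% of all genes listed. Since the rule used every level given below, the levels of these genes are a description and no test of them is offered.

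The cells were ARPE-19, an established RPE line, and all 6 cultures received erastin (5 μM, 24 h), an inhibitor of cystine uptake that triggers ferroptosis. In the Era group (3 libraries) erastin was given alone, and in the Era+VK group (3 libraries) vitamin K1 (VK1, 10 μM) was added 1 h before it. No library of untreated cells is part of what follows. The cell line field of the labels counts upwards over the samples, but each title says ARPE-19, and the titles were followed. The paper speaks of independent experiments in general terms, but neither it nor the labels say for the RNA-seq libraries whether the 3 of a group came from separate cultures. If they did not, p-values measure only the spread between these libraries, which may be technical.

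Haemoglobin of the red blood cell lineage is built from α-like and β-like globin chains, and each globin locus is read in developmental order. The embryonic chains are ε (HBE1) and ζ (HBZ), the fetal β-like chains are the γ chains (HBG1, HBG2), and β (HBB) takes over after birth, while both α genes serve fetus and adult. GATA1, KLF1 and NFE2 are transcription factors that drive these loci and the rest of the red cell program. Cancer-testis antigens such as the GAGE, MAGE and SSX families are normally expressed in germ cells, lie mostly on the X chromosome and are switched on in many tumours. RPE cells are known for none of these programs. As background, erythroid leukaemia lines such as K562 are known for embryonic and fetal globins, GATA1 and GAGE antigens together, with little HBB.

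The 73 genes were sorted by symbol, after their values had been seen, into 9 globin genes, 10 erythroid genes, 24 cancer-testis or germ cell genes, 16 other protein-coding genes and 14 noncoding RNAs, pseudogenes or other genes. Their FPKM summed to 1.24, 1.58 and 1.46 in the Era libraries and to 1.71 in Era+VK replicate 1. In Era+VK replicate 2 the sum was 347.52 FPKM, which was 0.146% of the FPKM of all genes of that library. In Era+VK replicate 3 it was 326.44 FPKM, or 0.143% of the library. The 2 libraries therefore held nearly equal shares, and the other 4 were all alike in holding almost none. Globin genes made up 78.9% of the sum in replicate 2 and 79.2% in replicate 3, cancer-testis or germ cell genes 11.4% and 10.2%, and erythroid genes 2.41% and 2.35%. In bulk RNA, a few cells with much of a transcript and many cells with little of it cannot be told apart.

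**Figure D1:**
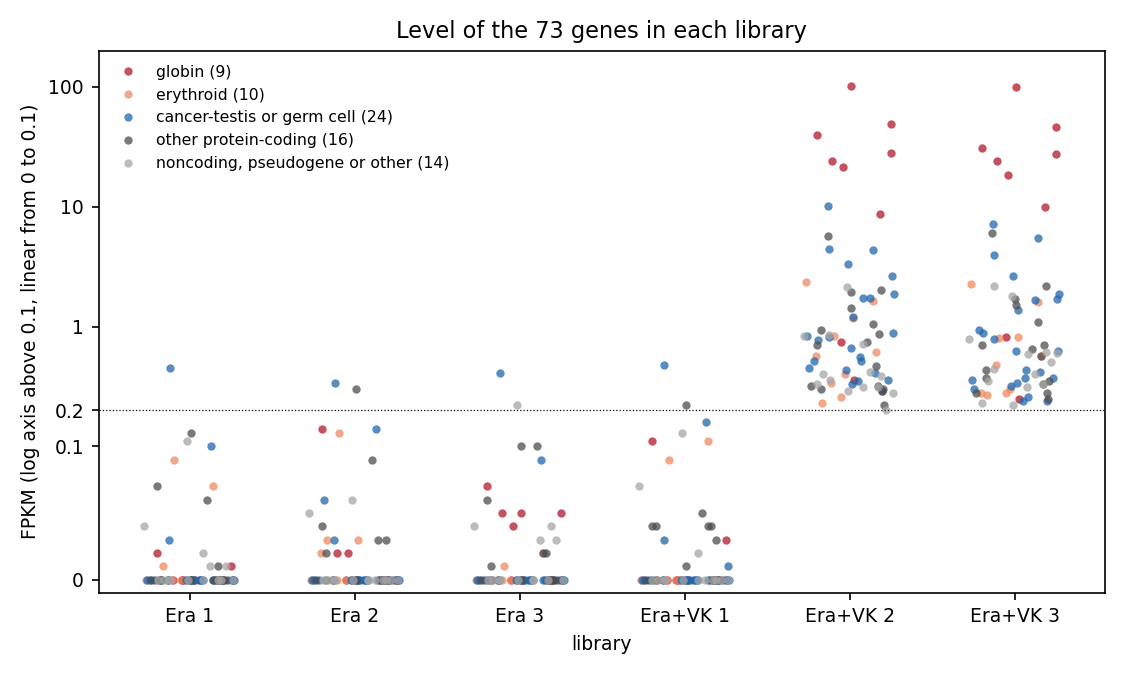
FPKM of the 73 genes in each of the 6 libraries, 1 point per gene, coloured by class; the y axis is logarithmic above 0.1 and linear below it, and the dotted line is the 0.2 FPKM limit of the selection. In Era 1 to 3 and Era+VK 1 most points lie at 0 and the highest is PRAME at 0.48 FPKM, while in Era+VK 2 and 3 all lie at 0.2 FPKM or higher.

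Of the 73 genes, 42 were listed at 0 in all 4 other libraries. The highest level anywhere outside the pair was 0.48 FPKM, of PRAME in Era+VK replicate 1. In the pair itself, 23 genes reached 1 FPKM in both libraries, 50 did not, and 35 had a lower value under 0.5 FPKM. The 10 genes with the highest lower value held 84.4% of the summed FPKM in replicate 2 and 84.6% in replicate 3. These were HBG2, HBE1, ENSG00000284931, HBG1, HBA2, HBA1, HBZ, GAGE12G, PEDS1-UBE2V1 and GAGE2A. Near the limit of 0.2 FPKM, the genes just inside were ENSG00000264647, ENSG00000261448 and FAM178B, with a lower value of 0.20 to 0.22 FPKM. Just outside lay CBFA2T3, ENSG00000227681 and GYPE, each with a lower value of 0.19 FPKM. Near the limit of 5 times, APOC1 (5.70 times the highest other library), LYL1 (6.15 times) and ALDH1A2 (6.50 times) were just inside, and HOXB2 (4.29 times), GAL (4.0 times) and ENSG00000274719 (3.86 times) just outside.

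The letters upstream of 4 of these genes are shown because the transcription factors GATA1 and KLF1, which are themselves among the 73, are known to bind the GATA motif and the CACCC motif. The sequences are from RefSeq on GRCh38.p14, run from 250 bases before to 50 bases after the gene start, are written 5′ to 3′ on the strand of the gene, and an entry was found for 43 of the 73 genes. Capitals mark the GATA hexamers on either strand, which are AGATAA and its variants written with G at the end (AGATAG), with T at the start (TGATAA) or with both changes (TGATAG). They also mark CACCC on either strand, which reads GGGTG on the other strand, and no GATA hexamer overlaps a CACCC. ALAS2 (haem synthesis), KLF1 (erythroid transcription factor) and PKLR (red cell pyruvate kinase) represent the erythroid genes, and GAGE12G the cancer-testis genes. They lie at chrX:55030928-55031227 (minus strand), chr19:12887152-12887451 (minus strand), chr1:155301389-155301688 (minus strand) and chrX:49570147-49570446 (plus strand).
ALAS2: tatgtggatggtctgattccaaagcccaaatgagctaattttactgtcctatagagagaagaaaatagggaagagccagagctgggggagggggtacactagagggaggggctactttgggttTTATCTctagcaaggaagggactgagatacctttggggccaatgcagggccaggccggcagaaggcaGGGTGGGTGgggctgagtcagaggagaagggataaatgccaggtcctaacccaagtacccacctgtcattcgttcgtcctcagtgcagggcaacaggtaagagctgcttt
KLF1: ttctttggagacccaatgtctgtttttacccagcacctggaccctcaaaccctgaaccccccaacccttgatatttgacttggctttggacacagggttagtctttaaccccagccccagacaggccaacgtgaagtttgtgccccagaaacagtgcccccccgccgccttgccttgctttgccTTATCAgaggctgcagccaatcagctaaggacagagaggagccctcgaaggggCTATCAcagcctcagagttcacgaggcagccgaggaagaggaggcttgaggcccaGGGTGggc
PKLR: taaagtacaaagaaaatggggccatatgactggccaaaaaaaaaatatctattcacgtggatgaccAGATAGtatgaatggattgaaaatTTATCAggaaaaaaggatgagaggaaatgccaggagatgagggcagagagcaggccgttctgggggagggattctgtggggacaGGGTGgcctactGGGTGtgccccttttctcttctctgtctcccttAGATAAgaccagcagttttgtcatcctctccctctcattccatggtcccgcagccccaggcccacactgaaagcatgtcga
GAGE12G: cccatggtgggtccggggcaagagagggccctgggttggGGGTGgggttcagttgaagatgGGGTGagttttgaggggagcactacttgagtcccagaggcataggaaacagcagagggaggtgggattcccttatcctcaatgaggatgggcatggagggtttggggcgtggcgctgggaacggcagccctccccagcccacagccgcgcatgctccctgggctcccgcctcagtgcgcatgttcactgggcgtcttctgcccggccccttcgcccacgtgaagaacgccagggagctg
A GATA hexamer was found in 7 of the 8 erythroid genes with an entry, in 5 of 23 cancer-testis or germ cell genes and in 25.5% of all 27305 promoters of the table. CACCC was found in 7 of the 8 erythroid genes, in 19 of the 23 cancer-testis or germ cell genes and in 58.9% of all promoters. A match is a description of the letters and not a binding site.

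The globin genes were the most abundant of the 73, and the embryonic and fetal chains led. HBG2 (γ-globin) was listed at 0, 0 and 0.05 FPKM in the Era libraries and at 0 in the first Era+VK library, against 101.77 and 100.25 FPKM in the pair. HBE1 (ε-globin) was listed at 0 in the other 4 libraries, at 49.14 FPKM in replicate 2 and at 46.34 FPKM in replicate 3. HBG1, the other γ gene, was at 0.01, 0 and 0.05 FPKM in Era, 0.03 in Era+VK replicate 1, and 28.18 and 27.66 in the pair. The 2 libraries differed little for any of the 3 genes, and neither approached the level of the other 4. ENSG00000284931, an annotated gene that overlaps both γ genes, stood at 0.02, 0.14 and 0.07 FPKM in Era, at 0.11 in Era+VK replicate 1 and at 39.93 and 30.88 in the pair. The coding sequences of HBG2 and HBG1 in GENCODE 29 differ at 2 of 444 bases (99.5% identity), so reads are shared and the division of FPKM among the 3 γ entries is uncertain. Summed over them, γ-globin reached 169.88 and 158.79 FPKM.

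At the α locus, HBA2 was listed at 0, 0.02 and 0.05 FPKM in Era, 0 in Era+VK replicate 1, and 24.10 and 23.95 in the pair. HBA1 was at 0, 0.02 and 0.04 FPKM in Era, 0 in Era+VK replicate 1, and 21.27 and 18.45 in the pair. The coding sequences of these α genes are identical over 429 bases, so only their sum can be read. HBZ, the embryonic ζ chain, was at 0 in the other 4 libraries and at 8.71 and 9.92 FPKM in the pair. At the β locus the adult end was low. HBD, the minor adult δ chain, reached 0.74 and 0.82 FPKM and the pseudogene HBBP1 0.36 and 0.25 FPKM. HBB, the adult β chain and no member of the 73, was at 0 in the other 4 libraries and at only 0.04 and 0.02 FPKM in the pair. HBM was listed at 0 in every library but replicate 3 (0.25 FPKM). HBQ1 (θ-globin) had a level in every library, 0.23, 0.32, 0.42 and 0.26 FPKM in the other 4 against 0.91 and 0.68 in the pair, and so missed the limit of 5 times.

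The composition of the globin signal was alike in both libraries. Of the summed FPKM of β-like genes (220.16 and 206.22), γ entries held 77.2% in replicate 2 and 77.0% in replicate 3, and HBE1 held 22.3% and 22.5%. Of the α-like sum (54.99 and 53.25 FPKM), HBZ held 15.8% and 18.6%. β-like genes exceeded α-like genes 4.0 times in replicate 2 and 3.87 times in replicate 3. On this per-length scale, which counts ENSG00000284931 beside the γ genes it overlaps, the order was HBG2, HBE1, ENSG00000284931, HBG1, HBA2, HBA1 and HBZ in both libraries.

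**Figure D2:**
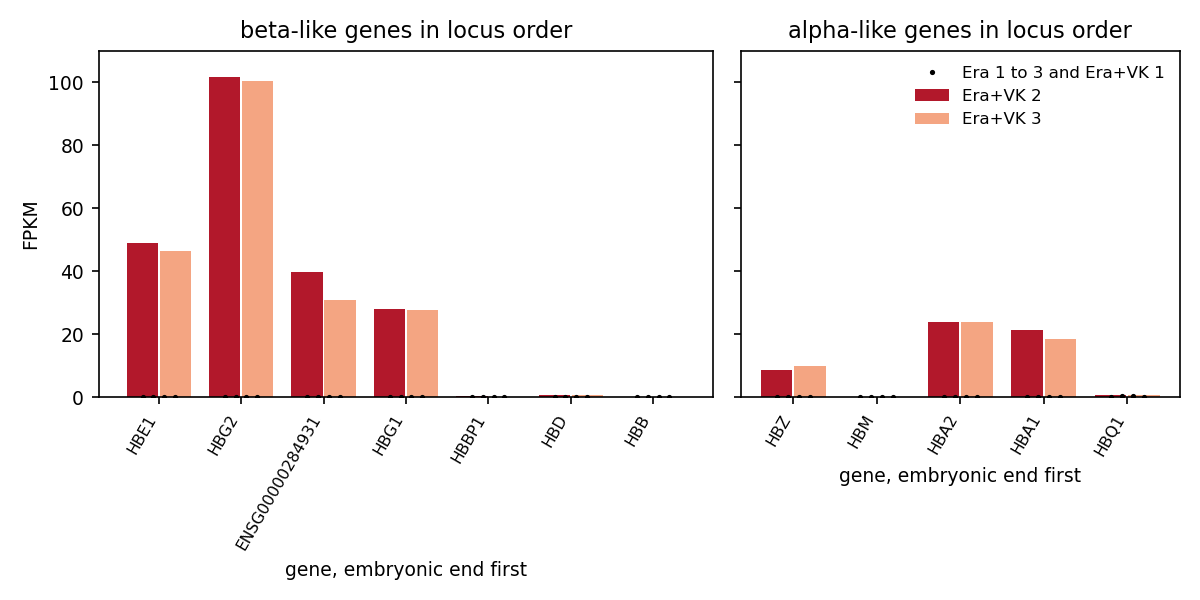
FPKM of 12 globin entries in the order of their loci, embryonic end first, as bars for Era+VK 2 and Era+VK 3 and black dots for the other 4 libraries. HBE1 and the γ entries exceed HBD and HBB at the β locus, HBZ stands beside HBA2 and HBA1 at the α locus, and the dots stay at 0.42 FPKM or lower.

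The red cell transcription factors followed at far lower levels. GATA1, the master factor of erythroid and megakaryocyte cells, was listed at 0 in the other 4 libraries and at 2.35 and 2.27 FPKM in the pair. NFE2, the partner that binds globin control regions, was at 0.07, 0 and 0.02 FPKM in Era, at 0.11 in Era+VK replicate 1 and at 1.63 and 1.60 in the pair. KLF1 was at 0, 0.03 and 0 FPKM in Era, at 0 in Era+VK replicate 1 and at 1.17 and 0.82 in the pair. All 3 were close to 0 outside the pair and higher in it. LYL1, a blood cell helix-loop-helix factor, reached 0.83 and 0.80 FPKM against at most 0.13 elsewhere, and GFI1B, a repressor of the same lineage, 0.23 and 0.27 against at most 0.03. NFE4, linked to γ-globin expression, was at 0 in the other 4 libraries and at 0.26 and 0.28 FPKM in the pair.

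Enzymes and surface proteins of the red cell completed the erythroid genes. ALAS2, the erythroid first enzyme of haem synthesis, reached 0.57 and 0.28 FPKM against at most 0.02 elsewhere. RHAG, the Rh-associated glycoprotein, was at 0.61 and 0.57 FPKM, ICAM4, the Landsteiner-Wiener antigen, at 0.34 and 0.48, and PKLR at 0.40 and 0.30, each at 0 in the other 4 libraries. Of 15 erythroid transcription regulators listed, 5 belonged to the 73 and 9 were higher in both libraries of the pair than in all other 4; that pattern held for 7.37% of all genes listed. The 4 that were above but not selected were TAL1 (0.18 and 0.24 FPKM against at most 0.02), CBFA2T3 (0.19 and 0.20 against at most 0.03), GATA2 (1.01 and 0.92 against at most 0.53) and LMO2 (0.30 and 0.24 against at most 0.20). The rest of the list, ZFPM1, RUNX1, MYB, IKZF1, SOX6 and MYBL2, was not above. ZFPM1 was lower in the pair (0.89 and 1.01 FPKM) than in the other 4 libraries (1.07 to 1.24). RUNX1 was at 1.76 and 2.06 FPKM against 1.86 to 2.39. Of 25 red cell membrane and surface genes, 1 belonged to the 73 and 14 were above. GYPC (glycophorin C) was at 0.04, 0.09, 0.21 and 0.09 FPKM in the other 4 libraries and at 1.01 and 0.76 in the pair. KEL (0.19 and 0.17 FPKM), GYPB (0.10 and 0.21), GYPE (0.21 and 0.19), RHCE (0.13 and 0.17) and HEMGN (0.05 and 0.04) were at 0 in the other 4 libraries. SLC4A1 (band 3) reached 0.02 FPKM at most and EPB42, a membrane skeleton protein, 0.01. Of 11 genes of haem synthesis and iron delivery, 3 were above, and the 10 other than ALAS2 were expressed at 2.69 FPKM or higher in every library.

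The cancer-testis genes formed the largest class by number. GAGE12G was listed at 0 in the other 4 libraries and at 10.15 and 7.18 FPKM in the pair, and GAGE2A at 0 and at 4.33 and 5.52 FPKM. The other GAGE copies were GAGE12F (3.30 and 2.66 FPKM), GAGE12C (2.62 and 1.71), GAGE12E (1.88 and 1.87), GAGE1 (1.20 and 1.38), GAGE13 (1.72 and 0.26) and GAGE12J (0.29 and 0.24), all at 0 elsewhere. PRAME, a melanoma antigen, was the only gene of the 73 above 0.3 FPKM in all 4 other libraries, at 0.45, 0.34, 0.41 and 0.48 FPKM, and stood at 4.45 and 3.95 in the pair. Each of these genes was higher in both libraries of the pair than anywhere else.

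The MAGE genes of the 73 all stayed under 1 FPKM. MAGEA3 reached 0.82 and 0.79 FPKM (at most 0.03 elsewhere), MAGEA6 0.52 and 0.93, MAGEA12 0.43 and 0.32, MAGEB2 0.77 and 0.88 (at most 0.06 elsewhere) and MAGEB1 0.33 and 0.34. CSAG1 was at 0.66 and 0.62 FPKM, SSX1 at 0.41 and 0.42, CTAG2 at 0.36 and 0.37, SPANXB1 at 0.83 and 0.36 and PAGE1 at 0.45 and 0.30, each at 0 in the other 4 libraries. GTSF1, a germ cell factor of transposon silencing, was at 1.74 and 1.67 FPKM against at most 0.16 elsewhere, and RHOXF2, an X-linked germ cell homeobox gene, at 0.88 and 0.63 against at most 0.01. VCX3A (0.52 and 0.43 FPKM), CT55 (0.56 and 0.37) and PRSS21, the serine protease testisin (0.35 and 0.24), were at 0 in the other 4 libraries. Of 47 genes of the antigen families listed, 19 belonged to the 73, and 15 stayed under 0.1 FPKM in every library. Above the other 4 libraries in both of the pair were 31 of the 47, against 7.37% of all genes listed. CT45A1, CT45A5 and MAGEA8 did not exceed 0.04 FPKM anywhere.

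The GAGE copies are near-identical, which is why their levels can be read only as a family. A stretch of 90 coding bases (positions 141 to 230, counted from the first base of the start codon, GENCODE 29) is shown for 4 of them, with capitals where a copy differs from GAGE12G.
GAGE12G: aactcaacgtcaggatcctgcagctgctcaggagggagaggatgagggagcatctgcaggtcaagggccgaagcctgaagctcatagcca
GAGE12F: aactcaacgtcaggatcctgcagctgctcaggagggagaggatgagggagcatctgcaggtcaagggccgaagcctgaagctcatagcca
GAGE12E: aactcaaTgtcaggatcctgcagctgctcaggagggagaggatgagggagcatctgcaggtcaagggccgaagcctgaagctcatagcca
GAGE1: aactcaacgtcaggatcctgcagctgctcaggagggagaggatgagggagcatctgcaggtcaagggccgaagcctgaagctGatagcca
GAGE12F and GAGE12G do not differ over their 354 coding bases, nor do GAGE12C and GAGE12E. In the notation of GAGE12E, position, GAGE12F, these pairs are separated by T148C alone. GAGE1 differs from GAGE12G by G223C, G337A and G338A, with the base of GAGE1 first. The level of 1.72 against 0.26 FPKM of GAGE13, the largest gap between the pair among the 73, therefore concerns a gene whose reads are shared with the other copies.

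The remaining protein-coding genes had no single role in common. PEDS1-UBE2V1, an annotated readthrough of neighbouring genes, was listed at 0 in the other 4 libraries and at 5.66 and 6.05 FPKM in the pair. MYL4, an atrial and embryonic myosin light chain, was at 0, 0.03, 0 and 0.03 FPKM in the other 4 libraries and at 2.01 and 2.17 in the pair. KCNH2, a potassium channel gene, was at 0.01 FPKM or lower outside the pair and at 1.42 and 1.52 in it. APOC1, an apolipoprotein, was at 0.13, 0.30, 0.10 and 0.22 FPKM in the other 4 libraries and at 1.95 and 1.71 in the pair. Its neighbour APOE, which missed the limit of 5 times, went from at most 0.69 FPKM to 2.31 and 1.81. Other members were FAM83A (1.04 and 1.10 FPKM), the serine protease gene PRSS2 (0.87 and 0.70), ALDH1A2, an enzyme of retinoic acid synthesis (0.74 and 0.65), and TNNI3, a cardiac troponin (0.47 and 0.57). RPSAP47 (2.13 and 1.79 FPKM) and RPS29P5 (0.39 and 0.61) are processed pseudogenes of ribosomal protein genes, whose reads can be shared with the parent genes.

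By position, 24 of the 73 genes (32.9%) lay on the X chromosome, which holds 3.30% of the genes with a position in GENCODE 29 (GRCh38). On X, 9 genes fell in 1 cluster (chrX:49322057-49695993, 8 GAGE genes and PAGE1) that contains 12 genes of the files. A further 4 (MAGEA3, CSAG1, MAGEA12 and MAGEA6) lay at chrX:152698752-152769747 among 8 genes, and MAGEB2 and MAGEB1 were neighbours at chrX:30215560-30252038. The β-globin locus (chr11:5232678-5678434) held 7 of the 73 among 20 genes, and the α-globin locus (chr16:152687-177522) held HBZ, HBA2 and HBA1 among 5. Members of 1 cluster can share reads or transcripts and are not independent of each other. In the GO annotation that the files carry, 8 of the 12 genes of the hemoglobin complex and 8 of the 16 genes of oxygen transport were among the 73.

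The pair of libraries agreed gene by gene as well as in total. The level in replicate 2 divided by that in replicate 3 had a median of 1.04 over the 73 genes (interquartile range 0.934 to 1.24, whole range 0.388 to 6.62), against a median of 0.998 over the tested genes outside the 73. For the 23 genes at 1 FPKM or higher in both, the median was 1.02 and the range 0.784 to 1.53. A total of 45 genes were higher in replicate 2, 26 in replicate 3 and 2 were equal. Across the 73 genes, which are not independent and share their libraries, Pearson's r of log10(FPKM) between replicates 2 and 3 was 0.963. The selection itself required a minimum in both libraries, though not equal levels.

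**Figure D3:**
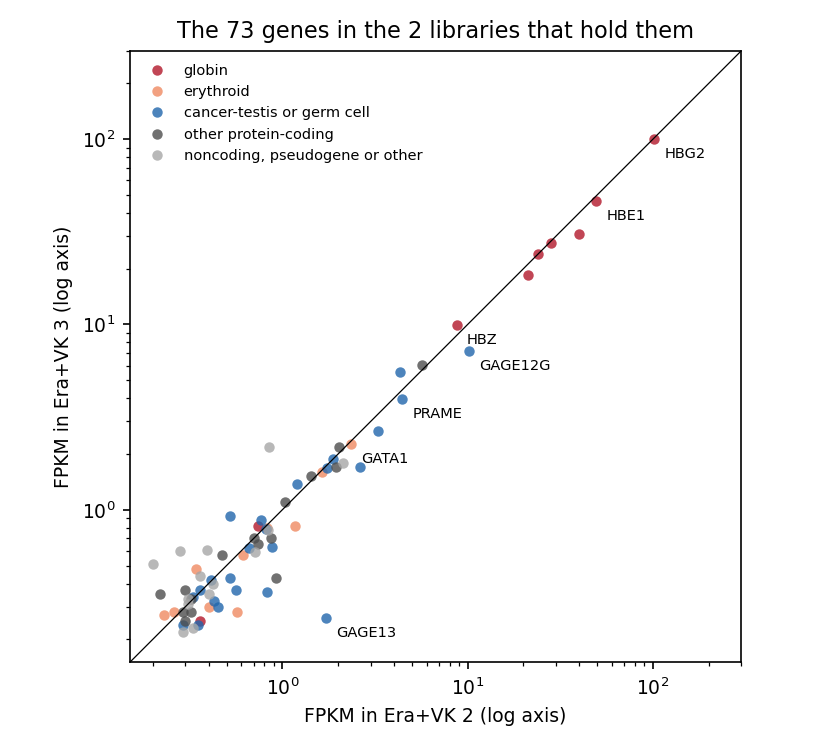
FPKM of the 73 genes in Era+VK 2 (x) and Era+VK 3 (y), both axes logarithmic, coloured by class, with the line of equal levels. Genes from 0.2 to 101.77 FPKM lie along the line, the globin genes at the top right, and GAGE13 lies farthest from it.

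Markers of other cells that could accompany red cell transcripts were mostly at or near 0. PTPRC (CD45), the pan-leukocyte surface marker, was at 0.03 FPKM in both libraries of the pair and at 0.06 to 0.14 in the other 4. Over all genes listed, 7.37% were above the other 4 libraries in both of the pair, and of 13 leukocyte genes 3 were, a larger share. Summed, these 13 genes were at 18.69 and 17.54 FPKM in the pair and at 16.71 to 19.93 in the other 4, most of it from RAC2. Of 8 megakaryocyte genes 2 were above, also a larger share than over all genes. These were GP1BB (0.55 and 0.51 FPKM against at most 0.14) and GP6 (0.08 and 0.07 against 0), while ITGA2B, the defining integrin, did not exceed 0.10 FPKM. The hepatocyte gene ALB was at 0 in the pair, and AFP stood at 0.67 and 0.77 FPKM against 0.62 to 0.95 elsewhere. Of 6 embryonic, germ cell and trophoblast genes, POU5F1 alone was above (0.19 and 0.17 FPKM against at most 0.13), and the germ cell gene DDX4 was at 0 in the pair.

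Most genes of the line itself had similar levels in the pair and in the other libraries. KRT18 was at 225.62 and 221.82 FPKM in the pair and between 225.54 and 245.81 in the other 4 libraries, and OTX2, an RPE transcription factor, at 29.47 and 29.30 against 27.50 to 31.35. RPE65, the defining visual cycle enzyme of RPE, did not exceed 0.02 FPKM in any library, whereas MITF was expressed at 15.49 to 18.59 FPKM. Of 10 RPE markers 1 was above in the pair, and of 7 epithelial and mesenchymal genes of the line 0 were, against 7.37% of all genes listed. KRT7 was lower in the pair, at 410.94 and 392.89 FPKM, than in the other 4 libraries, at 421.69 to 479.13. BEST1, another of the RPE markers, varied widely between libraries of the same group. It was at 2.65, 0.65 and 56.98 FPKM in Era, 36.45 in Era+VK replicate 1, and 0.6 and 4.8 in the pair. The cause of the BEST1 differences was not tested. Whether RNA of another cell source was present in the 2 libraries was not tested.

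**Figure D4:**
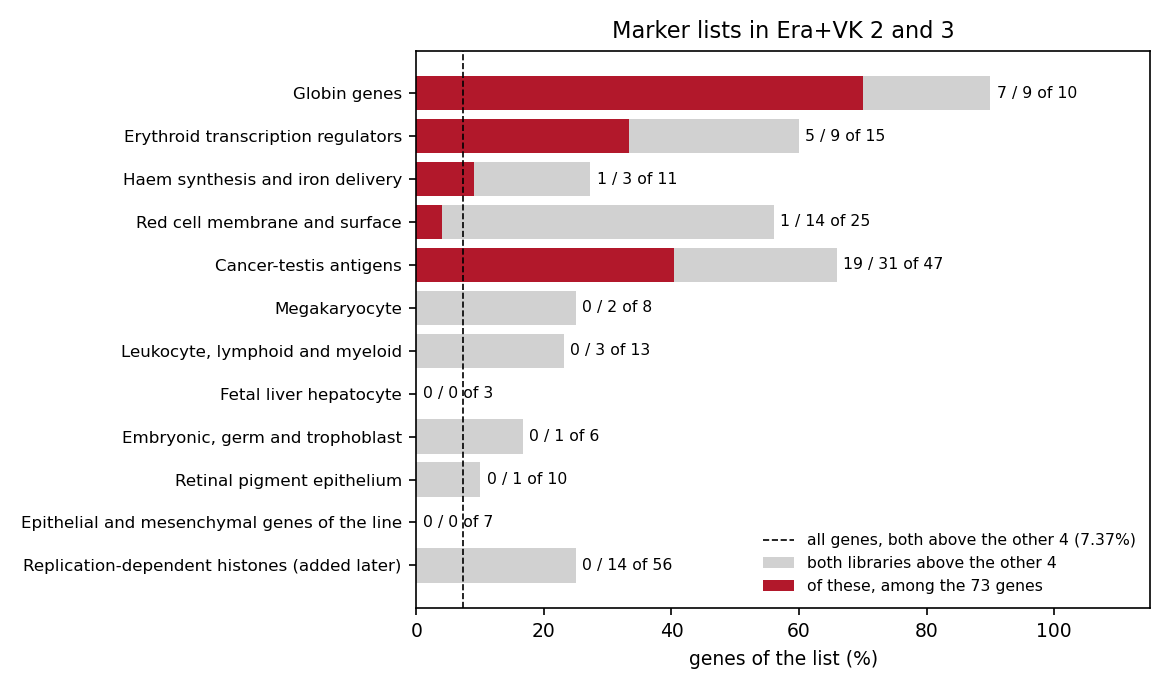
Share of each marker list (x axis, percent of the genes of the list found in the files) that was higher in both Era+VK 2 and 3 than in the other 4 libraries (grey), with those among the 73 genes in red and counts beside the bars; the dashed line is the 7.37% of all genes. Globin, erythroid, red cell and cancer-testis lists reach furthest, and the lists of the hepatocyte and of the line have no gene above. The lists were written with earlier results of these data known, and the bars carry no test.

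Since the 73 genes were present in 2 of the 3 Era+VK libraries, the rises of the whole group were read library by library. The 11981 genes whose mean level reached 1 FPKM, 11 of the 73 among them, were compared in limma on log2(FPKM + 1), a scale that understates the change of low genes. With Benjamini-Hochberg adjustment, 16 genes (0.134%) were called higher in Era+VK at an adjusted p under 0.05 and 58 (0.484%) lower. With Era library 1, 2 or 3 left out, the calls fell to 0, 0 and 1 higher and 3, 2 and 4 lower, and without Era+VK replicate 3 it called 8 higher and 34 lower. The 11 genes of the 73 took part in this fit, but since they were chosen on the same values their fold changes and p-values are not read. The genes called higher all lie outside the 73.

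In all 16 genes called higher, every Era+VK library was above every Era library. Among the 11981 tested genes, 1806 had this order, so it is not particular to the 16. Replicate 1 was part of the fit that called the 16 genes, so its high level is largely fixed by the call and is given as a description. In 8 of them replicate 1 was the highest library of all, in 3 it lay between replicates 2 and 3, and in 5 it was below both. These 5 were TMEM50B, ENSG00000204556, CHP1, DZIP1 and ADI1. With replicate 1 as the only Era+VK library, the 16 log2 fold changes, which the call made positive, had a median of 0.39 against 0.36 in the full comparison, and 1 (CYP1B1) kept an adjusted p under 0.05 in limma. In that comparison, 0.0585% of genes were called higher, and the lone library is assumed to vary like the others. CYP1B1, an enzyme induced through the aryl hydrocarbon receptor, was at 5.31, 5.38 and 4.81 FPKM in Era and at 10.89, 11.26 and 9.18 in Era+VK. CYP1A1, its relative, was at 1.47, 1.15 and 1.46 FPKM in Era and at 2.89, 2.77 and 2.79 in Era+VK, so that the groups did not overlap. ENSG00000289720 had the largest log2 fold change of the 16 (1.91, adjusted p 0.0460 in limma) and its highest level in replicate 1, at 7.54 FPKM against 3.04 and 4.79 in the pair. CALR, a chaperone of the endoplasmic reticulum, was at 371.00 to 380.41 FPKM in Era and at 461.84, 482.16 and 452.78 in Era+VK. Beside these and the 5 named above, the called genes were ROGDI, CTNNBIP1, MYO1D, RASGRF2, CPE, ILRUN and METRN, with log2 fold changes of 0.27 to 0.44.

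In a further comparison Era+VK replicate 1 was left out, so that the pair alone stood for the group. limma then called 31 genes higher (0.259% of those tested), of which 12 belonged to the 73 by way of their selection on the same libraries, 7 were among the 16 above and 12 were further genes. The 12 are called only with replicate 1 left out, so its low level in them is fixed by that choice, and they are named, after their values were seen, as a description. Replicate 1 was not above all Era libraries in 7 of the 12, and its log2 fold change against Era was negative in 5. H1-2, a linker histone, was at 6.28, 5.89 and 8.56 FPKM in Era, 8.96 in Era+VK replicate 1, and 27.06 and 29.54 in the pair. H2BC12, a core histone, was at 27.43, 27.07 and 26.07 FPKM in Era, 25.94 in Era+VK replicate 1, and 45.52 and 41.82 in the pair. PIM1, a serine/threonine kinase, was at 8.36, 7.38 and 8.04 FPKM in Era, 7.06 in Era+VK replicate 1, and 11.37 and 11.34 in the pair. In each of the 3, replicate 1 stood with Era or close to it. The others were IFITM1, VAMP8, APOE, MATR3, MPC1, SNRNP25, YDJC and the ribosomal protein pseudogenes RPSAP15 and RPSAP58.

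**Figure D5:**
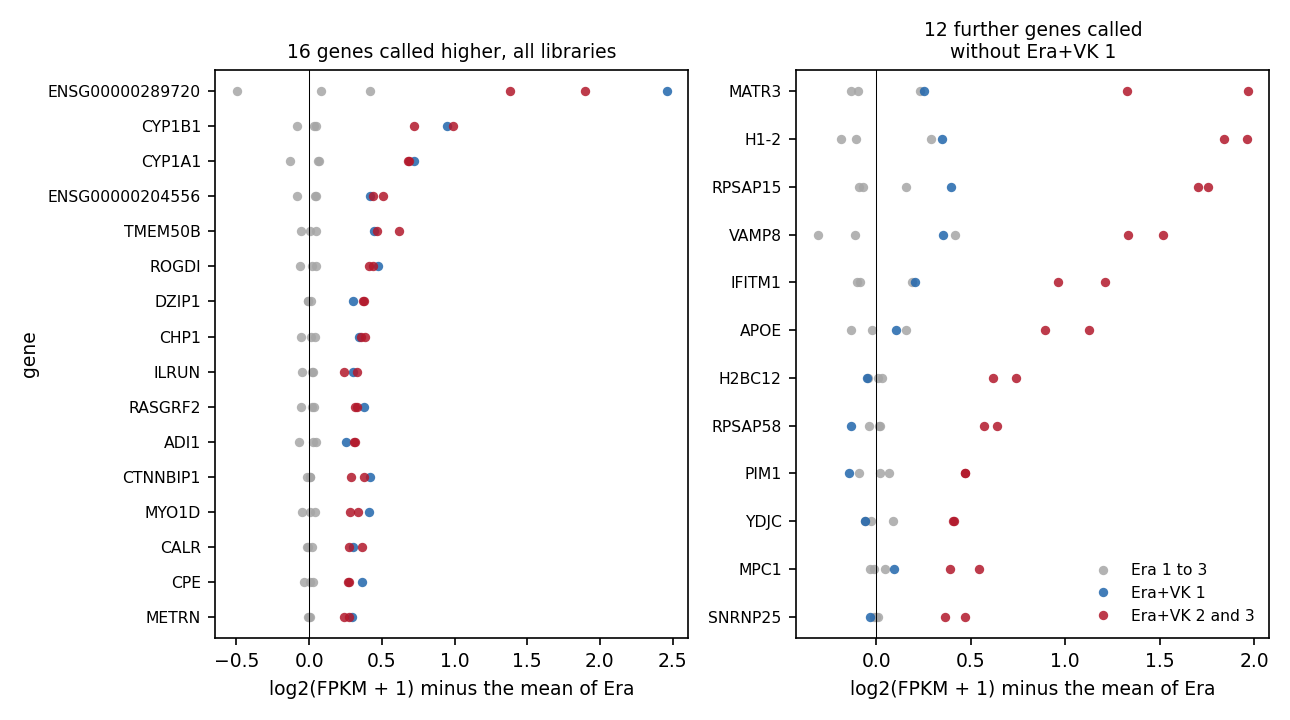
log2(FPKM + 1) minus the mean of the 3 Era libraries, 1 row per gene and 1 point per library (grey Era, blue Era+VK 1, red Era+VK 2 and 3), for the 16 genes called higher with all libraries (left) and the 12 further genes outside the 73 called without Era+VK 1 (right). On the left the blue point lies above all grey ones in every row and below both red ones in 5 rows, and on the right, where its low level follows from how the genes were chosen, it lies nearer to the grey ones than to the red ones.

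Below the limit of 5 times, more genes passed at each lower limit. At 0.2 FPKM or higher in the pair, 87 genes exceeded the other libraries over 3 times, 113 over 2 times, 160 over 1.5 times and 1806 at all. At 1 FPKM or higher these counts were 27, 33, 38 and 1410. The last count of each series is mostly of small differences and is not read as the pattern of the 73. Among tested genes outside the 73, 1359 were above at all, 1350 of them by 1.5 times or less. The median over the 1359 was 1.03 times. The 40 genes between 2 and 5 times included the histone genes H1-2 and H2BC11, APOE, GYPC, the cancer-testis gene PAGE5 (1.28 and 0.89 FPKM against at most 0.33), STAT5A, a signal transducer of cytokine receptors (0.99 and 0.92 against at most 0.24), and HOXB9 (1.09 and 0.89 against at most 0.26). Of 56 replication-dependent histone genes, a list added after their values were seen, 14 were above the other 4 libraries in both of the pair. The share over all genes listed was 7.37%. Of the 12 tested, 6 were above, where 11.4% of all tested genes were. The median log2 fold change of these 12 was 0.31 over all libraries, 0.16 with replicate 1 alone and 0.38 with the pair alone, and limma called 0 of the 12, with an unadjusted p under 0.05 for 7, all higher, where 10.4% of all tested genes were higher at that p. Through their share of the library, the 73 genes themselves moved other genes little: leaving them out and rescaling raised every other gene by 0.0021 on the log2 scale in each library of the pair. The 16 calls were all kept, with 1 more, but so small a shift could hardly change them. The rescaling leaves in place any transcripts of other genes that may have come with the 73, and these were not tested.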

How the data were processed

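RNA of ARPE-19 cells was measured in 6 libraries, 3 per group. The authors deposited FPKM values, rounded to 2 decimals, of 33496 genes. The submitters' processing notes name cutadapt, HISAT2 and StringTie 2.1.6, and the build mm10, which is a mouse build, while the gene identifiers are human; the annotation is not given in the sources used here. Depth cannot be read from FPKM. Counting errors and detection limits are therefore left out, and an exact 0 is reported as listed.

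Members were found by the stated limits on the values as deposited. The members and lists were chosen with earlier results of these data known. Shares are sums of FPKM over the sum of all genes of a library. Group differences were fitted with limma 3.58.1 (R 4.3.3) on log2(FPKM + 1) for the 11981 genes whose mean reached 1 FPKM, using empirical Bayes with a trend and no replicate term. A gene was called at a Benjamini-Hochberg adjusted p under 0.05. In simulated data over these 11981 genes, limma recovered 197 of 200 changed genes with 6 false calls, and it called 0 with nothing changed. The planted changes were 1 up or down on the log2 scale, with independent normal noise. All genes called higher but ENSG00000289720 had a smaller fold change, and recovery of smaller changes was not simulated. Positions, types and coding sequences are from GENCODE 29, matched by identifier for all 73 genes, and promoters from RefSeq. Clusters join members less than 500000 bases apart. Symbols that begin like an antigen family but belong to other genes (CTAGE genes, SSX2IP) were left out of the antigen list.

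The genes named are all members of the globin and cancer-testis families, all members on the marker lists, the 10 most abundant members, the 3 genes on each side of each limit and every further gene called higher. Other genes named were chosen after their values were seen. Alternatives were other limits for the selection, a pseudocount of 0.1, no filter or a stricter one (1 FPKM in every library), quantile normalization, the members left out, a replicate block, each library left out, and both libraries of the pair left out. Values of other listed genes are left out of the text.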

Additional observations from a re-analysis of the deposited data

How the results depend on the processing

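The selection gave 38 genes at a minimum of 0.5 FPKM and 23 at 1 FPKM, subsets of the 73, and between 64 and 87 with the ratio or the limit on the other libraries changed. Leaving out 1 library gave 76 to 158 genes. The extremes came from using 1 library of the pair alone: 158 without Era+VK replicate 2 and 144 without Era+VK replicate 3, all 73 among them. The share was 0.174% and 0.170% in Era+VK replicates 2 and 3 without mitochondrially encoded genes in the sum, 0.140% and 0.137% at 0.5 FPKM, and 0.141% and 0.138% at over 10 times.

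Calls higher and lower in limma were 0 and 1 with no filter on low values, 33 and 89 with a minimum of 1 FPKM in every library, and 16 and 96 with quantile normalization. Without 1 library, calls higher ran from 0 to 31 and calls lower from 2 to 47. Without Era replicate 1, 2 or 3 there were 0, 0 and 1 calls higher and 3, 2 and 4 lower. At an unadjusted p under 0.05, limma gave 1742 genes higher with no filter, and 1018 and 852 without Era replicates 1 and 2. Without Era+VK replicate 3 there were 8 and 34. Without both Era+VK replicates 2 and 3 there were 7 and 44, of which 1 and 29 were shared with the full comparison. With a replicate block there were 5 and 37. The deviations of same-numbered libraries correlated at 0.07, 0.10 and 0.02, so the numbers are not taken to pair the libraries. No direction of the 16 genes called higher reversed under any alternative run. As every Era+VK library of these genes was above every Era library, this was largely fixed beforehand and is no support for the calls. The causes of these differences were not tested. FPKM without depth do not show which of the low members are limited by counting.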
